A study of Mus musculus with 26 samples.

Results

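Genes of the pluripotency network, 10 in all, were followed through 10 RNA-seq libraries of embryonic fibroblasts and fetal tissues. They are *Pou5f1*, *Nanog*, *Sox2*, *Zfp42*, *Dppa3*, *Esrrb*, *Tfcp2l1*, *Klf4*, *Klf2* and *Utf1*, chosen by name, and all 10 were found among the 52454 gene symbols of the deposited expression table. The libraries, 1 per condition, fall into 4 kinds of sample.

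The 2i-MEFs are fibroblasts lacking *Dnmt3a* in 1 library and *Dnmt3b* in the other, of female F1 (129X1/SvJ and MSM/Ms) origin. ES cells kept in 2i/L medium, with *Dnmt3a* or *Dnmt3b* disrupted by CRISPR/Cas9, were injected into blastocysts. Fibroblasts were taken from the chimeric E14.5 embryos, enriched for ES cell descendants by drug selection and sorting for GFP, and used at the first passage. The 4 MEF libraries come from male E14.5 C57BL6 embryos at the same passage, labelled WT or *Dnmt3a* KO (a germline allele) and treated with the solvent DMSO or with GSK126, an inhibitor of the histone methyltransferase EZH2. Heart and liver were taken from male E14.5 C57BL6 embryos labelled WT or *Dnmt3a* KO, 1 library each, and the heart and liver of a label carry the same number in their titles. Origin from ES cells, strain, sex and selection change together between 2i-MEFs and MEFs and cannot be told apart. RNA of WT 2i-MEFs is not used here. With 1 library per condition there is no test and no p-value. Values are FPKM, fragments scaled to transcript length and to the number mapped in the library, and a ratio is a difference in log2(FPKM + 1). A gene is counted as higher or lower when FPKM + 1 differed at least 2-fold, or when every library of a kind lay beyond every library of the other kind.

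Pluripotent cells of the early embryo, and ES cells derived from them, are held in a self-renewing state by a circuit of transcription factors around POU5F1 (OCT4), SOX2 and NANOG. Naive cells, those that resemble the epiblast before implantation, also use ESRRB, TFCP2L1, KLF2 and KLF4, several of which answer to LIF through STAT3. *Pou5f1*, *Nanog* and *Zfp42* are textbook cases of genes that are shut in somatic cells and whose promoters gain DNA methylation as cells differentiate, whereas *Klf2*, *Klf4* and *Sox2* have further roles in somatic tissues.

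The libraries held the cells their labels name. Summed over 12 fibroblast markers, FPKM ran from 24746 to 26350 in 2i-MEFs and from 14037 to 21722 in MEFs. Cardiomyocyte markers summed to 52194 to 55478 in heart, and hepatocyte markers to 14273 to 23689 in liver, where erythroid markers summed to 4913 to 4931. *Dnmt3a* stood at 4.21 FPKM in the *Dnmt3a* KO 2i-MEFs, against 23.9 in the *Dnmt3b* KO line. *Dnmt3b* stood at 0.817 in the *Dnmt3b* KO 2i-MEFs and 1.81 in the *Dnmt3a* KO line, but also at only 0.315 to 0.964 in MEFs, so its level does not check that label. In libraries labelled *Dnmt3a* KO, *Dnmt3a* was 85.7 and 84.5 in MEFs and 125 in heart, above the 26.1, 19.3 and 55.0 of the matching WT libraries, and among the tissues and MEFs it was lower only in liver (12.7 against 53.5). A gene-level FPKM does not show which exons were read, so those MEF and heart libraries are called by their label. Depth, estimated from the steps in low FPKM values, was lowest in the *Dnmt3b* KO 2i-MEFs, 9176945 reads, and highest in liver labelled WT, 26234999.

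The 10 genes split into 3 sets by level. *Klf4* and *Klf2* were the only members at or above 1 FPKM in every fibroblast library. *Sox2*, *Dppa3*, *Esrrb*, *Tfcp2l1* and *Nanog* stayed below 6 FPKM, *Sox2* and *Dppa3* with their highest values in MEFs, *Esrrb* and *Nanog* in heart and *Tfcp2l1* in liver. *Pou5f1* was seen in liver by at most 3 reads, and *Zfp42* and *Utf1* were listed at 0 in all 10 libraries. At or above 1 FPKM stood 2 members in each 2i-MEF library, 2 or 3 in MEFs, 4 in each heart library and 2 in each liver library, where 24.0% to 25.2% of all genes were.

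**Figure D1:**
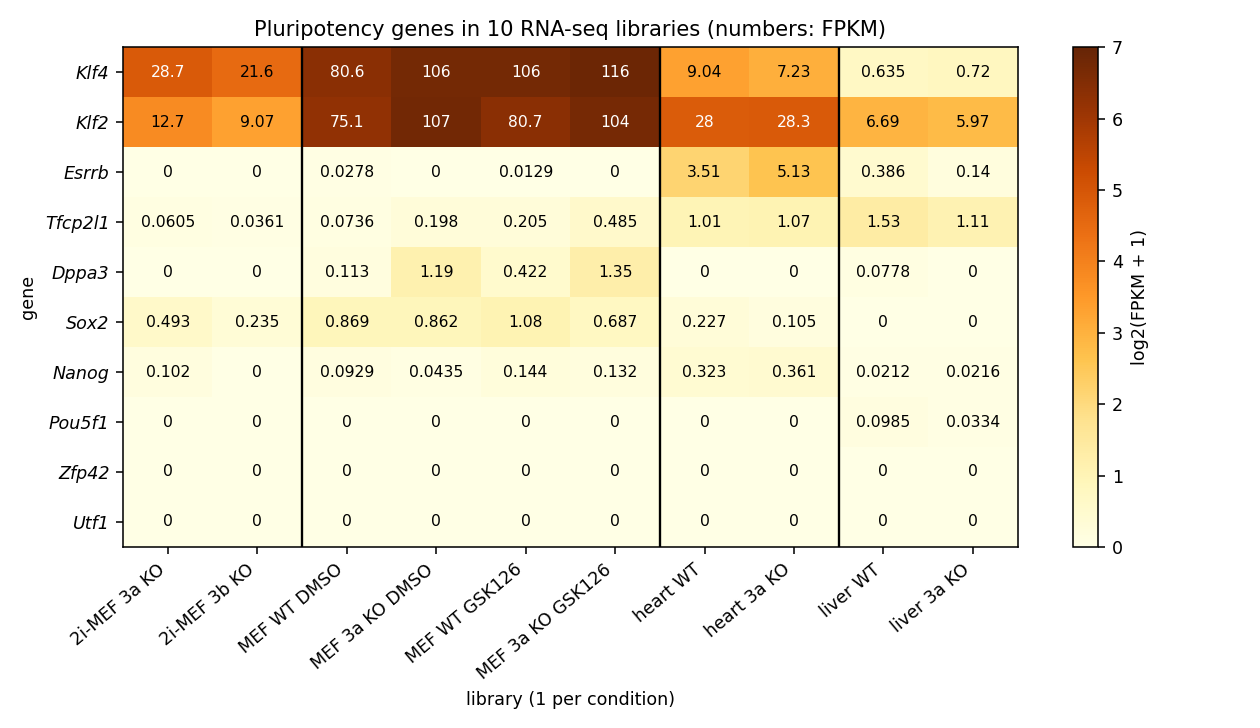
FPKM of the 10 genes (rows) in the 10 libraries (columns, 1 per condition). The colour gives log2(FPKM + 1), the printed number FPKM, and vertical lines part 2i-MEFs, MEFs, heart and liver. *Klf4* and *Klf2* carry nearly all of the colour and are highest in the 4 MEF libraries, while *Zfp42* and *Utf1* are at 0 throughout.

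The upstream sequences are shown because the study varies enzymes that methylate CpG sites, and the members differ in how many they hold there. Each run below is the 250 bases just before a transcription start in RefSeq (GRCm38.p6, the mm10 assembly), 5′ to 3′ on the gene's strand, with every CpG in capitals. *Klf4*, *Klf2* and *Sox2*, whose levels in MEFs lay above those in all other kinds of sample, come first, *Dppa3*, also highest in MEFs, has no entry, and *Zfp42*, at 0 throughout, and *Nanog*, near 0 in fibroblasts, follow.
Klf4, chr4:55532476-55532725, minus strand: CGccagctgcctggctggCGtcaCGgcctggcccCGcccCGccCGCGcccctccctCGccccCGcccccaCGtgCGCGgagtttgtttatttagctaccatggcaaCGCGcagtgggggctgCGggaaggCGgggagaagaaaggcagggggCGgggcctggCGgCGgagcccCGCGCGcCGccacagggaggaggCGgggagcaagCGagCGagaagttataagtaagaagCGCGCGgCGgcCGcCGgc
Klf2, chr8:72318812-72319061, plus strand: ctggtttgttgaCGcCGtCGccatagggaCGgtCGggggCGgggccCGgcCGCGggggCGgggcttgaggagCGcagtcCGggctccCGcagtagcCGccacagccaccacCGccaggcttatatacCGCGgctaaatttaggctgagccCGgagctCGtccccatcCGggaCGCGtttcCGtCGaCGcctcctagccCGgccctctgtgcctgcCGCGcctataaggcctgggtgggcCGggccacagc
Sox2, chr3:34649745-34649994, plus strand: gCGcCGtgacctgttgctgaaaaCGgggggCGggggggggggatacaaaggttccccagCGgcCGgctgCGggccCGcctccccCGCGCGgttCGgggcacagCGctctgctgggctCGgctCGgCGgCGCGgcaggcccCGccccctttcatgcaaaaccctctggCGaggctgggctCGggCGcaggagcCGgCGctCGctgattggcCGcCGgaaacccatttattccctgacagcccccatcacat
Zfp42, chr8:43307010-43307259, minus strand: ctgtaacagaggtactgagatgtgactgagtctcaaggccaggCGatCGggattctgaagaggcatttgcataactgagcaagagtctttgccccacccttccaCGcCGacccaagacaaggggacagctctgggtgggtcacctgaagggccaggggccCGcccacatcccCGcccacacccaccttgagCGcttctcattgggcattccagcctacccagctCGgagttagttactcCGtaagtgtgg
Nanog, chr6:122707239-122707488, plus strand: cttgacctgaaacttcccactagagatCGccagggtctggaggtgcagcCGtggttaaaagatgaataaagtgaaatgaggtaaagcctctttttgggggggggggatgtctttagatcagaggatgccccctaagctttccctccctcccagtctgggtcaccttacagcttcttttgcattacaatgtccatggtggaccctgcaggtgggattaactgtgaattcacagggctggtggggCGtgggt

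*Klf4* held 32 CpG sites in this window, more than 95.4% of the 32851 promoters of the same length. *Klf2* held 29 and *Sox2* 27, more than 93.2% and 91.4% of promoters. *Sox2* was itself low, at most 1.08 FPKM in any library, so a high CpG number did not go with a high level there. Of the other genes that were low or at 0, *Tfcp2l1* had 16, *Utf1* 14 and *Zfp42* 9. *Pou5f1* (8 and 6 at its annotated starts), *Esrrb* (6 and 3) and *Nanog* (3 and 2) lay near or below the median of all promoters, which was 6 with quartiles at 2 and 16. *Tfcp2l1*, with a level in every library, and *Utf1*, listed at 0 in all of them, therefore differed by only 2 sites. RefSeq promoters were matched for 9 members, all but *Dppa3*, with 12 starts in all. The octamer ATGCAAAT, searched on both strands, was found upstream of *Zfp42* alone, and in 1.60% of all promoters. The letters CACCC on either strand, a core that KLF proteins bind, were in 6 of the 12 windows and in 52.0% of all promoters. CpG methylation of these windows was not analysed here.

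**Figure D2:**
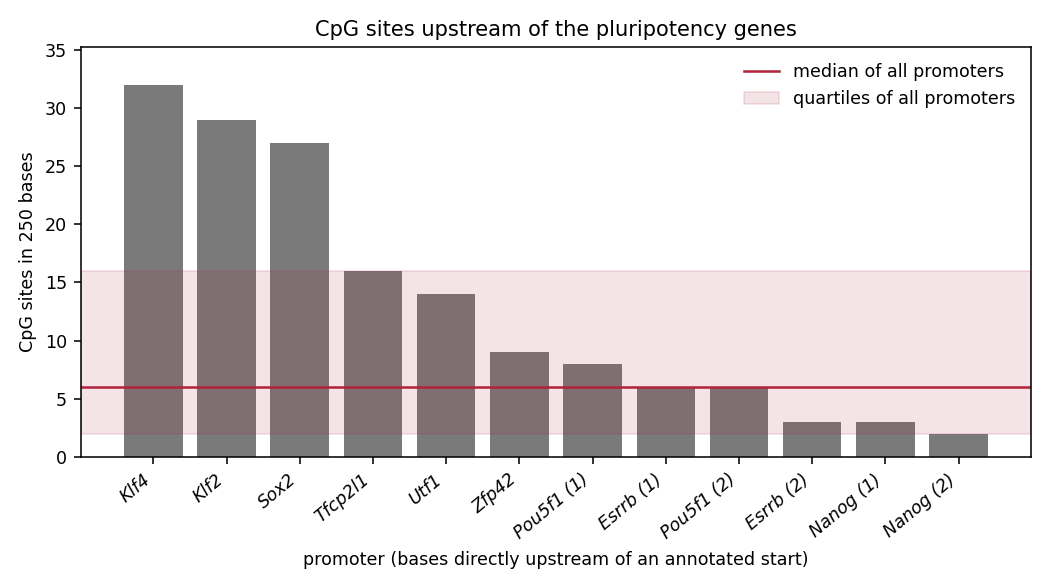
CpG sites (vertical axis, number) in the 250 bases upstream of 12 annotated starts of 9 members, numbered where a gene has 2 starts. The line and band mark the median, 6, and the quartiles, 2 and 16, of all 32851 promoters. Only *Klf4*, *Klf2* and *Sox2* rise above the band.

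*Klf4*, a zinc-finger factor of ES cells that also acts in epithelia and vascular cells, lies on chromosome 4 (55527143 to 55532466, minus strand, mm10). It stood at 28.7 FPKM in *Dnmt3a* KO and 21.6 in *Dnmt3b* KO 2i-MEFs. In MEFs it was 80.6 in the WT library with DMSO, 106 in its counterpart labelled *Dnmt3a* KO, 106 in WT with GSK126 and 116 in *Dnmt3a* KO with GSK126. All 4 MEF libraries thus lay above both 2i-MEF libraries, by 2.81-fold for the closest pair and 5.37-fold for the farthest. Among 21580 protein-coding genes *Klf4* ranked between 954 and 1372 in MEFs, and 3723 and 4579 in 2i-MEFs. Heart had 9.04 and 7.23 FPKM and liver 0.635 and 0.720, WT first. The order was therefore MEFs, 2i-MEFs, heart and liver, with no overlap between neighbours.

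*Klf2*, a related factor that MEK inhibition helps to maintain in ES cells and that shear stress induces in endothelium, lies on chromosome 8 (72319033 to 72321656, plus strand). It stood at 12.7 FPKM in *Dnmt3a* KO and 9.07 in *Dnmt3b* KO 2i-MEFs. With DMSO it was 75.1 in WT MEFs and 107 in those labelled *Dnmt3a* KO, and with GSK126 80.7 and 104. *Klf2* has 1 annotated transcript, so its reads could be counted back: 229 and 137 in the 2i-MEFs against 2221 to 4524 in MEFs. The MEF libraries exceeded the 2i-MEF libraries by 5.90- to 11.8-fold. Counting error was far smaller than this gap, with a 95% exact Poisson interval of 7.62 to 10.7 FPKM in *Dnmt3b* KO 2i-MEFs and of 72.0 to 78.2 in WT MEFs with DMSO. These intervals cover counting error only. Unlike *Klf4*, *Klf2* was higher in heart (28.0 and 28.3) than in 2i-MEFs, and liver was again lowest at 6.69 and 5.97.

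*Dnmt3a* KO 2i-MEFs were also set against the MEFs labelled *Dnmt3a* KO with DMSO. No member was at least 2-fold higher (1.7% of all genes were, and 6.35% of those with at least 1 FPKM in either library), and 3 were lower, *Klf2* by 2.98, *Klf4* by 1.85 and *Dppa3* by 1.13 on the log2 scale, where 2.24% of all genes were and 8.37% of the expressed ones. By ranges over all libraries, 5 members were lower in 2i-MEFs with no overlap (*Klf2*, *Klf4*, *Sox2*, *Dppa3* and *Tfcp2l1*), against 7.56% of all genes and 21.0% of those with at least 1 FPKM in any of them, and 0 members were higher, against 8.12% and 24.1%. Of the 5 lower members, *Dppa3* was at 0 in 2i-MEFs, where 3 reads were worth 0.435 and 0.518 FPKM. Both WT MEF values, 0.113 and 0.422, lie below that, so against WT MEFs its direction is not shown at this depth. *Tfcp2l1* rests on at most 6 and 3 reads in 2i-MEFs and differed by only 1.22-fold for the closest pair. The median ratio of the 10 members was -0.09 and that of all genes 0. None of the 10 members was thus higher in the 2i-MEFs by either measure, a count that lies near the shares of all genes, 1.7% and 8.12%. In plain FPKM *Nanog* was 2.34-fold higher in the *Dnmt3a* KO 2i-MEFs than in the matched MEFs, from 2 reads in each.

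The 2i-MEFs and MEFs also differed in other cells' markers. The sum of 8 macrophage markers was 14.7 to 22.3 FPKM in 2i-MEFs and 1010 to 1414 in MEFs, led by *Lyz2* in both, and all 8 were at least 2-fold lower in the matched 2i-MEF library. The sum was 69.3 to 71.8 in heart and 154 to 227 in liver. *Klf2* and *Klf4* are also expressed in macrophages, and the part of these cells in the MEF levels was not tested. In tissue and culture libraries alike, fewer cells of a type and less RNA per cell cannot be told apart. Endothelial markers, which matter for *Klf2*, summed to 469 to 484 in heart, 108 to 110 in liver, 33.7 to 55.7 in 2i-MEFs and 17.2 to 92.0 in MEFs. Of these, *Eng* led in all libraries, at 26.3 and 42.1 in 2i-MEFs and 9.40 to 87.5 in MEFs, *Erg* was at least 2-fold higher in *Dnmt3a* KO 2i-MEFs than in the matched MEFs, and *Tie1* and *Sox17* were listed at 0 in every 2i-MEF and MEF library. Epithelial markers, of cells in which *Klf4* acts, summed to 3.51 to 10.3 in 2i-MEFs, 28.6 to 64.5 in MEFs, 141 to 165 in heart and 203 in liver, and in MEFs *Krt19* was highest, at 19.8 to 42.0, while *Esrp1* and *Grhl2* were at 0. *Krt8*, *Krt18* and *Krt19* were at least 2-fold lower in *Dnmt3a* KO 2i-MEFs than in the matched MEFs. *Krt18*, however, was 7.27 in *Dnmt3b* KO 2i-MEFs, within the 4.13 to 12.3 of MEFs. *Krt8* was only 1.04 and 0.998 in WT MEFs, against 0.456 and 0.408 in 2i-MEFs. The part of endothelial and epithelial cells in these levels was not tested.

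**Figure D3:**
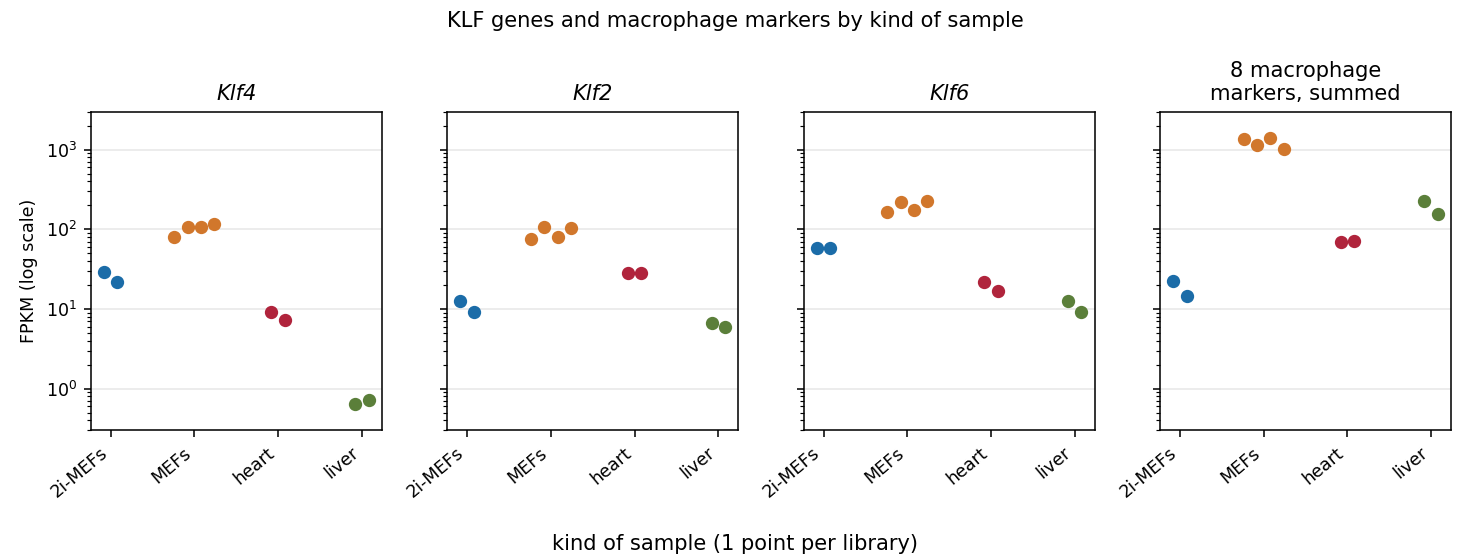
FPKM on a log scale (vertical axis) of *Klf4*, *Klf2*, *Klf6* and the sum of 8 macrophage markers, 1 point per library, by kind of sample. MEFs lie highest in all 4 panels, with *Klf4* at 80.6 to 116, *Klf2* at 75.1 to 107 and a macrophage sum of 1010 to 1414.

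The KLF family as a whole was followed in 17 genes. Between *Dnmt3a* KO 2i-MEFs and the matched MEFs 3 were at least 2-fold lower (*Klf2*, *Klf4* and *Klf6*), 0 were higher, and the median ratio was -0.45. *Klf6*, a broadly expressed member, was 58.2 and 58.1 FPKM in 2i-MEFs, 164 to 225 in MEFs, 16.7 to 21.7 in heart and 9.19 to 12.4 in liver. In MEFs the 3 highest of the family were *Klf6*, *Klf4* and *Klf2*. In 2i-MEFs *Klf6* was again highest, and by the median of both libraries *Klf3* and *Klf13* came next, although *Klf4* stood above *Klf13* (19.5 FPKM) in the *Dnmt3a* KO line. *Klf3* was at 33.4 and 29.6 FPKM in 2i-MEFs against 32.7 to 46.0 in MEFs, so its levels overlapped where those of *Klf2*, *Klf4* and *Klf6* did not. The leading genes were *Klf2*, *Klf6* and *Klf3* in heart and *Klf1*, the erythroid factor, *Klf3* and *Klf16* in liver. *Klf1* reached 480 and 469 FPKM there and at most 0.418 in fibroblasts.

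*Sox2*, the partner of POU5F1 and a factor of neural and glial progenitors, lies on chromosome 3 (34650405 to 34652461, plus strand). It stood at 0.493 FPKM in *Dnmt3a* KO 2i-MEFs, from 10 reads, and 0.235 in the *Dnmt3b* KO line, from 4. In MEFs it was 0.869 in WT and 0.862 in *Dnmt3a* KO with DMSO, and 1.08 and 0.687 with GSK126, from 27 to 41 reads. Heart had 0.227 and 0.105, and both liver libraries were listed at 0, where 3 reads would have been worth 0.0616 and 0.0628 FPKM. The 4 kinds did not overlap, in the order MEFs, 2i-MEFs, heart and liver, but the lower steps rest on few reads. WT heart, with 8 reads and a 95% interval of 0.0981 to 0.448, lay just below *Dnmt3b* KO 2i-MEFs. The step from 2i-MEFs to heart is therefore not shown at this depth. Heart labelled *Dnmt3a* KO had 3 reads against 0 in liver. Counting error was wide at these levels: the 95% interval of *Dnmt3a* KO 2i-MEFs, 0.236 to 0.907, took in all the MEF values but 1.08, while that of *Dnmt3b* KO 2i-MEFs, 0.0640 to 0.602, lay below all 4. The gene sits within *Sox2ot* on the same strand, whose own level was at most 0.322 FPKM. The sum of 8 glial and Schwann cell precursor markers was 11.6 to 17.8 in 2i-MEFs, 13.5 to 18.1 in MEFs, 31.5 to 34.2 in heart and 18.0 to 20.5 in liver, and *Sox10* was 1.71 and 3.43 in 2i-MEFs and 3.17 to 3.61 in MEFs. Of 8 neural progenitor markers 3 were at or above 1 FPKM in every fibroblast library (*Nes*, at 12.0 to 27.3, *Tubb3* and *Fabp7*), and *Sox1* and *Neurog2* were listed at 0 in all libraries. The part of such cells in the *Sox2* level was not tested. Of the 19 SOX genes followed, *Sox5* and *Sox6* were at least 2-fold lower in *Dnmt3a* KO 2i-MEFs than in the matched MEFs and 0 higher. *Sox4* led in both kinds of fibroblast, at 45.5 to 61.4 FPKM. By the median of the libraries *Sox12* came next, then *Sox13* in 2i-MEFs, which was the third in neither library alone, and *Sox5* in MEFs. In heart *Sox12*, *Sox4* and *Sox18* were the highest, and in liver *Sox6*, *Sox12* and *Sox18*.

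*Dppa3* (Stella), a germ cell and maternal protein that protects the maternal genome from demethylation in the zygote, lies on chromosome 6 (122626410 to 122630272, plus strand). Among the members it differed most between MEFs labelled *Dnmt3a* KO and WT. With DMSO it was 1.19 FPKM in the library labelled *Dnmt3a* KO, from 15 to 19 reads depending on the transcript, against 0.113 in WT, from 1 read. With GSK126 it was 1.35, from 14 to 18 reads, against 0.422, from 4 or 5. The library labelled *Dnmt3a* KO was higher in both pairs, by 0.98 and 0.73 on the log2 scale, short of the 2-fold line. The direction rests on labels that the level of *Dnmt3a* itself goes against in these libraries. Both 2i-MEF libraries were listed at 0, where 3 reads were worth 0.435 and 0.518 FPKM. The level of either WT MEF library lies below this limit, so it would have been worth fewer than 3 reads in them. The fall against *Dnmt3a* KO MEFs shrank to 0.16 on the log2 scale against WT MEFs with DMSO. Heart was at 0 and liver at 0.0778 and 0. Of 9 germ cell markers, whose sum was 2.05 to 4.05 in MEFs and 6.48 to 9.50 in 2i-MEFs, *Nanos2* was at 0 throughout. In *Dnmt3b* KO 2i-MEFs *Mael* (2.84) and *Nanos3* (2.81) led, in MEFs labelled *Dnmt3a* KO with DMSO *Ddx4* (0.807), and in the other 8 libraries *Kit*. The part of germ cells in the *Dppa3* level was not tested.

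*Esrrb*, an orphan nuclear receptor that can stand in for NANOG in ES cells, lies on chromosome 12 (86361117 to 86521628, plus strand) and was a heart gene in these data. It stood at 3.51 and 5.13 FPKM in WT and *Dnmt3a* KO heart, 0.386 and 0.140 in liver, 0.0278 and 0.0129 in the WT MEF libraries and 0 in the other 4 fibroblast libraries. The lower heart library was 9.08-fold above the higher liver library, and the MEF values rested on at most 2 reads. Its relative *Esrrg*, a regulator of cardiac energy metabolism, was likewise highest in heart, with 11.4 and 12.0 FPKM there and at most 0.457 elsewhere, while *Esrra* was at 33.1 to 35.5 in heart and 9.83 to 19.8 in the other libraries. Of the 6 ESRR and TFCP2 relatives, 0 differed 2-fold between *Dnmt3a* KO 2i-MEFs and the matched MEFs. *Ubp1*, *Esrra* and *Tfcp2* were the highest in fibroblasts and liver, and *Esrra*, *Ubp1* and *Esrrg* in heart. The 3 genes with profiles most like that of *Esrrb* were *Mybpc1*, *Adamts19* and *Wscd1*, with a mean distance of 0.08, 0.09 and 0.10. This distance is the mean absolute difference over the 10 libraries in log2(FPKM + 1), each gene centred on its own mean, among 15642 genes, and all 3 lay between 3.54 and 5.36 FPKM in heart.

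*Tfcp2l1*, a grainyhead-related factor of naive cells that also serves in kidney and salivary ducts, lies on chromosome 1 (118627945 to 118685168, plus strand) and was a gene of liver and heart here. It stood at 1.53 and 1.11 FPKM in WT and *Dnmt3a* KO liver and 1.01 and 1.07 in heart. In MEFs it was 0.0736 in WT and 0.198 in *Dnmt3a* KO with DMSO, and 0.205 and 0.485 with GSK126. In 2i-MEFs it was 0.0605 and 0.0361, from at most 6 and 3 reads, below all MEF values, by 1.22-fold for the closest pair and 13.4-fold for the farthest. Liver and heart did not overlap but differed little, by 1.03- to 1.53-fold. Within MEFs the library labelled *Dnmt3a* KO was higher in both treatments and the GSK126 library higher under both labels, with ratios of 0.16 to 0.31 on the log2(FPKM + 1) scale, which understates changes of low genes. In plain FPKM these are 2.36- to 2.79-fold. The profiles closest to it were those of *Emc6*, *Rnf5* and *Adipor1* (distance 0.09, 0.10 and 0.10), which are expressed at 17.1 to 128 FPKM in all 10 libraries, so the likeness is one of small differences between libraries and not of level.

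*Nanog*, a homeobox factor of the core circuit, lies on chromosome 6 (122707489 to 122714633, plus strand), near *Dppa3*. It was highest in heart, at 0.323 and 0.361 FPKM from 10 to 12 reads. In MEFs it was 0.0929 in WT and 0.0435 in *Dnmt3a* KO with DMSO, and 0.144 and 0.132 with GSK126, from 2 to 6 reads. The 2i-MEFs had 0.102 in the *Dnmt3a* KO library, from 2 reads, and 0 in the *Dnmt3b* KO library, and each liver library had 1 read. Only heart stood clear, 2.25-fold or more above every MEF library, and 2i-MEFs overlapped both MEFs and liver.

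*Pou5f1* (OCT4), the POU factor on which the network depends, lies on chromosome 17 (35506018 to 35510772, plus strand). It was listed at 0 in all 8 fibroblast and heart libraries and stood at 0.0985 and 0.0334 FPKM in WT and *Dnmt3a* KO liver, which is at most 3 reads and 1 read. In 2i-MEFs 3 reads would have been worth 0.237 and 0.282 FPKM. *Gm19553*, which overlaps it on the other strand, was at 0 everywhere. *Zfp42* (REX1), a zinc-finger marker of naive cells, lies on chromosome 8 (43295063 to 43306980, minus strand), and *Utf1*, a chromatin protein of ES cells, on chromosome 7 (139943789 to 139945112, plus strand). Both were listed at 0 in all 10 libraries, as were 48.7% of all gene symbols and 18.2% of protein-coding genes. A listing at 0 is no proof of silence: at the depth of the *Dnmt3b* KO 2i-MEFs, the shallowest, 1 read was worth 0.0666 FPKM for *Zfp42* and 0.106 for *Utf1*, and 3 reads 0.200 and 0.319.

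**Figure D4:**
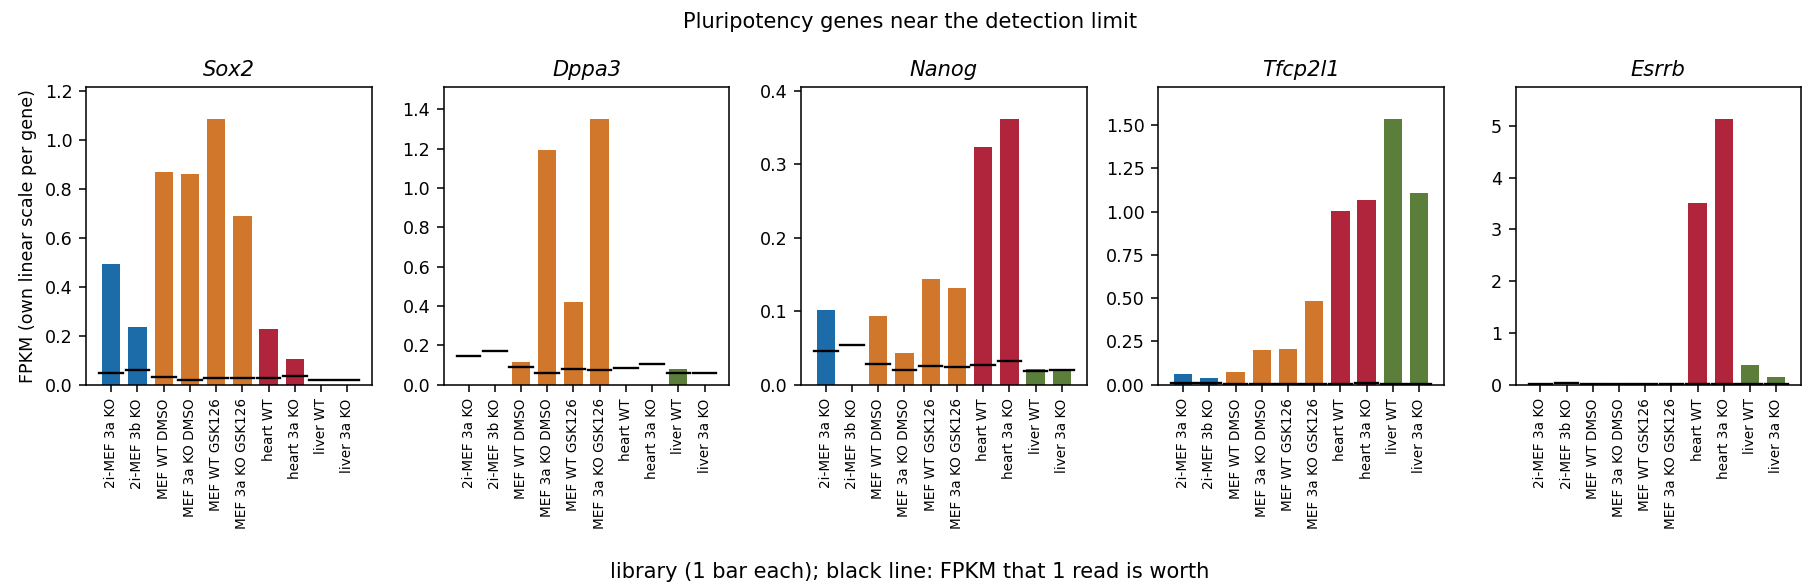
FPKM (vertical axis, a linear scale of its own for each gene) of *Sox2*, *Dppa3*, *Nanog*, *Tfcp2l1* and *Esrrb* in the 10 libraries, 1 bar each, blue for 2i-MEFs, orange for MEFs, red for heart and green for liver. The black lines mark what 1 read is worth. *Sox2* is highest in MEFs and *Tfcp2l1* in liver, with *Esrrb* in heart at 3.51 and 5.13 and *Dppa3* in the MEF libraries labelled *Dnmt3a* KO at 1.19 and 1.35.

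In the comparisons of 2 libraries of the same kind of sample, by line, label or treatment, no member passed 2-fold in FPKM + 1. Libraries that differ by line or label also come from different embryos. This scale damps low genes: in plain FPKM *Dppa3* differed 3.20-fold by label in MEFs with GSK126, and with DMSO its WT value rested on 1 read. *Sox2* differed 2.17-fold between the heart libraries, from 8 and 3 reads, and *Esrrb* 2.75-fold between the liver libraries. With a pseudocount of 0.1, 1 member passed between the 2i-MEF lines, 1 by label in MEFs under each treatment, 1 with GSK126 in WT MEFs and 1 in liver. *Dnmt3a* KO against *Dnmt3b* KO 2i-MEFs gave 0 members at least 2-fold higher or lower (1.43% and 0.906% of all genes). The largest ratios were 0.45 for *Klf2* and 0.39 for *Klf4*, both higher in the *Dnmt3a* KO line. Libraries labelled *Dnmt3a* KO against WT gave 0 members in either direction in MEFs with DMSO (1.11% and 0.528% of all genes), in MEFs with GSK126 (0.745% and 0.764%), in heart (0.576% and 0.488%) and in liver (0.351% and 0.581%). *Klf2* was higher in the *Dnmt3a* KO library by 0.51 with DMSO and 0.36 with GSK126, and *Klf4* by 0.39 and 0.13. In heart the members differed by at most 0.44, for *Esrrb*, and in liver by at most 0.28 in size, for the same gene with the opposite sign. GSK126 against DMSO likewise gave 0 members in WT MEFs (0.559% and 0.408% of all genes) and in those labelled *Dnmt3a* KO (0.522% and 0.846%). The comparisons by label and by treatment share the same 4 MEF libraries.

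Between kinds of sample more members differed. WT MEFs with DMSO against WT heart had *Klf4* (3.02 on the log2 scale) and *Klf2* (1.39) higher, among 5.04% of all genes, and *Esrrb* lower (-2.13), among 4.81%. Against WT liver they had *Klf4* (5.64) and *Klf2* (3.31) higher, among 6.63%, and *Tfcp2l1* lower (-1.24), among 6.78%. WT heart against WT liver had *Klf4* (2.62), *Klf2* (1.91) and *Esrrb* (1.70) higher, among 5.71%, and 0 members lower, among 5.85%. Among genes with at least 1 FPKM in both, this comparison had a median of -0.13, and centring on it left the same counts. By ranges, 5 members were higher in heart than in liver, among them *Nanog* and *Sox2*, where 14.9% of all genes were and 40.1% of those with at least 1 FPKM in any of these libraries. *Tfcp2l1* and *Pou5f1* were lower (15.7% and 42.6%). *Pou5f1* rests on at most 3 reads in liver, and 1 read in heart was worth 0.0454 and 0.0558 FPKM, so at this depth its direction is not shown. For the other 6, every heart library lay beyond every liver library. Agreement within both pairs of heart and liver that share a number follows from this rule and is no further evidence. For *Sox2* the pair labelled *Dnmt3a* KO had 3 reads in heart and 0 in liver. Their exact Poisson intervals, 0.0216 to 0.306 and 0 to 0.0772 FPKM, overlap. Within that pair the direction of *Sox2* is therefore not shown at this depth. MEFs had 4 members above heart, *Klf4*, *Klf2*, *Sox2* and *Dppa3* (11.8% and 35.0%), and 3 below, *Nanog*, *Esrrb* and *Tfcp2l1* (12.0% and 32.8%). They had 5 above liver, *Klf4*, *Klf2*, *Sox2*, *Nanog* and *Dppa3* (13.3% and 38.1%), and 3 below, *Esrrb*, *Tfcp2l1* and *Pou5f1* (13.5% and 36.9%). Of these *Nanog* and *Dppa3* rest on at most 1 read in each liver library and *Pou5f1* on at most 3, so those directions are not shown at this depth. Against heart, *Dppa3* in WT MEFs with DMSO rests on 1 read, and 1 read in heart was worth 0.0835 and 0.103 FPKM. For that library its direction is not shown either. These comparisons share the WT libraries.

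**Figure D5:**
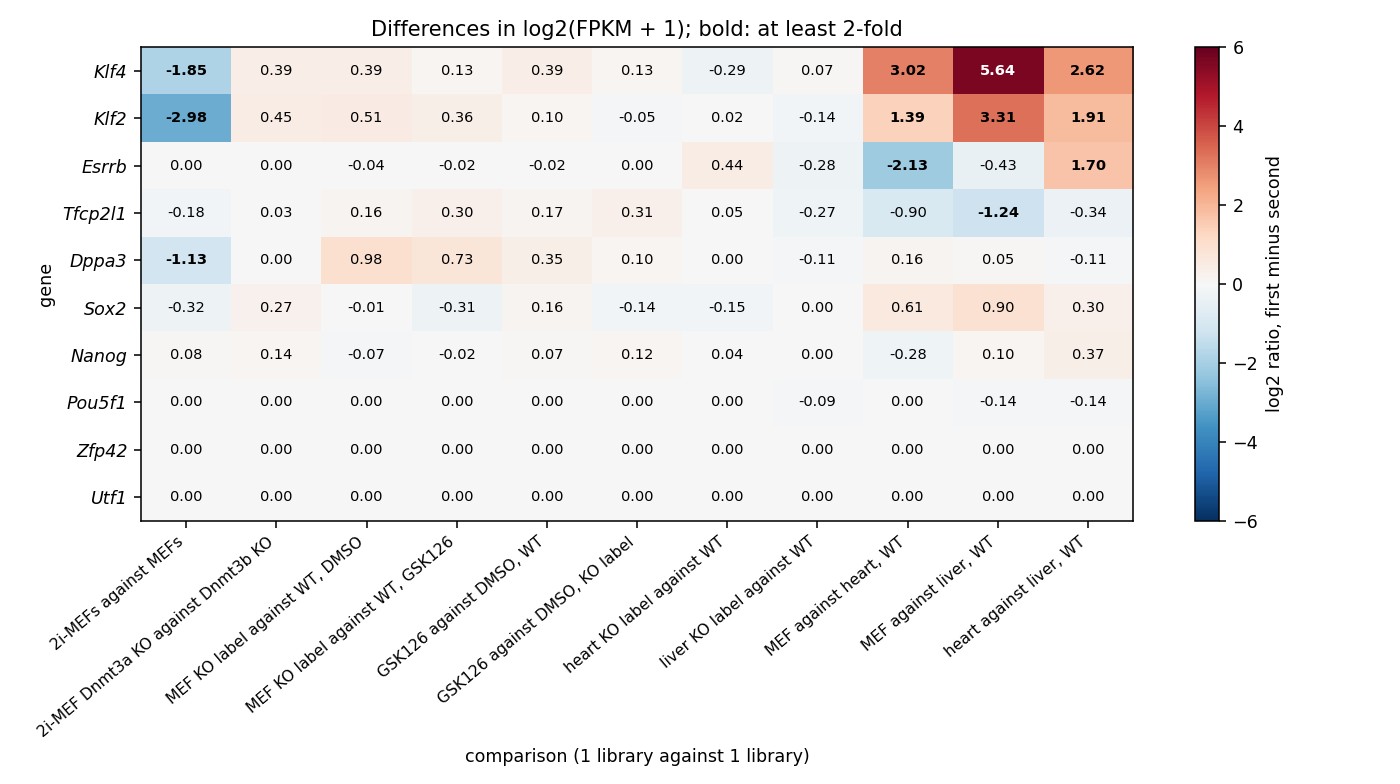
Differences in log2(FPKM + 1) of the 10 genes (rows) in 11 comparisons of 1 library with another (columns), the first named minus the second. Bold numbers are at least 2-fold. They stand only in the first column, 2i-MEFs against MEFs (-1.85, -2.98 and -1.13), and in the last 3 columns, between kinds of sample.

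Most of the wider network was low as well. Of 22 further genes of the naive network, 3 were at or above 1 FPKM in each 2i-MEF library, 4 in each MEF library, 2 or 3 in heart and 6 or 7 in liver. *Prdm14*, *Dppa2*, *Dppa4*, *Tdgf1*, *Fgf4* and *Tcl1* were among the 8 listed at 0 in every MEF library and the 13 listed at 0 in both 2i-MEF libraries. The 3 that differed most between the *Dnmt3a* KO 2i-MEFs and the matched MEFs were *Tbx3*, *Lefty1* and *Klf5*. *Tbx3*, a T-box factor also used in limb and heart, was 2.09 and 6.23 FPKM in 2i-MEFs and 6.06 to 11.0 in MEFs, with a ratio of -1.92, the 1 gene of the 22 past 2-fold, although the kinds overlapped. *Lefty1*, a Nodal inhibitor, had -0.93 and was lower in both 2i-MEF lines, 1.03 and 1.71 FPKM against 1.89 to 4.33 in MEFs. *Klf5* had -0.88, but at 2.53 and 5.59 in 2i-MEFs and 3.04 to 5.49 in MEFs it overlapped. In liver *Lefty1* was the highest of the 22 in the WT library, at 7.81 FPKM, and *Gdf3*, a TGF-beta ligand, in the library labelled *Dnmt3a* KO, at 9.95. Of 8 genes of primed and formative cells, 0 differed 2-fold between 2i-MEFs and MEFs, and *Fgf5* (-0.97), *Zic2* (-0.24) and *Sox3* (0.07) differed most. *Sox3* was at 5.40 and 5.42 FPKM in heart.

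Transcripts of most genes of the LIF pathway, which feeds *Klf4* and *Tfcp2l1* in ES cells, were found in all libraries. Their levels do not show whether the pathway was active. All 8 genes followed were at or above 1 FPKM in every fibroblast library and 7 in each tissue library, all but the ligand *Lif*. In *Dnmt3a* KO 2i-MEFs against the matched MEFs 3 were at least 2-fold higher (*Socs3*, the feedback inhibitor, and the receptor chains *Lifr* and *Il6st*) and 2 lower (the ligand *Lif* and the kinase *Pim1*), with a median of 0.67. *Socs3* was 50.6 FPKM in *Dnmt3a* KO and 22.6 in *Dnmt3b* KO 2i-MEFs against 13.5 to 19.6 in MEFs, *Lifr* 8.28 and 4.92 against 2.32 to 3.22, and *Pim1* 5.40 and 14.0 against 12.3 to 19.8. *Lif* was 3.05 and 3.70 in 2i-MEFs against 3.43 to 8.76 in MEFs. *Socs3* and *Lifr* were thus higher in both 2i-MEF lines while *Pim1* and *Lif* overlapped, and *Klf4* and *Tfcp2l1* were lower in both lines. *Il6st*, the signalling chain that LIF shares with other cytokines, was the highest of the 8 in fibroblasts and heart, and *Pim1* in liver. *Lif* was at 0.0733 and 0 FPKM in WT and *Dnmt3a* KO heart and at 0 in both liver libraries.

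Of the 15 POU genes, *Pou3f3* and *Pou3f4* rose past 2-fold in the *Dnmt3a* KO line against the matched MEFs and 0 fell. *Pou3f4*, a factor of inner ear mesenchyme and brain, was 2.85 FPKM there, 0 in *Dnmt3b* KO 2i-MEFs and 0.143 to 0.537 in MEFs. *Pou3f3* was 1.80 FPKM in the *Dnmt3a* KO line, 0.227 in the *Dnmt3b* KO line and 0.130 to 0.286 in MEFs. Both differences were thus with 1 of the 2 lines. *Pou6f1* was the highest POU gene in every fibroblast library and, at 3.80 FPKM, in heart labelled *Dnmt3a* KO. *Pou2f1* (OCT1), the widely expressed relative of OCT4, was the highest in WT heart, at 5.59, and in both liver libraries.

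The profiles most like those of the higher members were found in the same way. For *Klf4* they were *Pdpn*, *Sema3c* and *Serpine2*, at distances of 0.28, 0.30 and 0.33. *Pdpn*, the membrane glycoprotein podoplanin, had 30.0 and 36.0 FPKM in 2i-MEFs, 79.5 to 123 in MEFs, 7.89 to 10.9 in heart and 0.433 to 1.49 in liver. For *Klf2* they were *Gm28592*, *Gpr137b-ps* and *Id1* (0.29, 0.33 and 0.34), and *Id1*, a target of BMP signals, had 30.0 to 49.4 in 2i-MEFs and 246 to 334 in MEFs. For *Dppa3* they were *Gm22637*, *Hoxc13* and *Gm16225* (0.13, 0.13 and 0.14), which like it were highest in the 2 MEF libraries labelled *Dnmt3a* KO.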

How the data were processed

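Of the 26 samples of the series, the 10 RNA-seq libraries were used, 1 per condition, and the 16 DNA methylation samples were not. The authors made mRNA libraries with a stranded kit, sequenced single reads, trimmed them with cutadapt 1.15, mapped them to mm10 on GENCODE M15 with tophat 2.1.1 and bowtie2 2.3.2, discarded multiply mapped reads and those with a MAPQ under 20, and computed FPKM with cufflinks 2.2.1. The processing notes name TopHat2 2.1.0, Bowtie2 2.2.5 and cutadapt 1.9.1 instead. The FPKM values were deposited as 1 table without read counts, and whether counting used strand is not given in the sources used here. Rows of the same symbol were summed (155 rows repeat a symbol).

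From these values log2(FPKM + 1) was compared between libraries (pandas 2.3.3, numpy 2.4.6) with no test, since each condition has 1 library. Nothing was scaled further. Depth was estimated from genes with 1 transcript of at least 1500 bases, whose low values are multiples of 1 read: 97.7% to 99.0% were whole within 0.05 reads, and 1 read on 2000 bases was worth 0.0212 to 0.0606 FPKM. The step was tested on simulated data. Reads behind a value are given for the shortest and longest annotated transcript (GENCODE M21, whose starts and ends are the same for all 10 genes). Exact Poisson intervals (scipy 1.17.1) and limits of 3 reads cover counting error only.

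The members, gene lists and markers were chosen with earlier results of these data known. The genes named are the 10 members, *Dnmt3a* and *Dnmt3b*, the 3 of each pathway list that differed most between 2i-MEFs and MEFs, the 3 highest of each family by the median in each kind of sample (in part not reported here for the POU genes), the leading marker of each list, and the 3 most like each member with at least 1 FPKM in at least 2 libraries. Other listed genes named, such as those past 2-fold or at 0, were picked after their values were seen. Alternatives were a pseudocount of 0.1, centring on the median gene, a filter at 1 FPKM, a 1.5-fold line, a 0.1 FPKM line, other MEF libraries as reference and, for repeated symbols, the row with the highest mean.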

Additional observations from a re-analysis of the deposited data

How the results depend on the processing

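The calls on *Klf4* and *Klf2* held under the alternatives run for them: their ratios between 2i-MEFs and MEFs ran from -1.88 to -1.46 and from -3.07 to -2.47. That of *Dppa3* moved to -0.16 with WT MEFs as reference. Of 116 counts recomputed, 97 kept their value within 1.5 times, many of them 0 under both settings. With a pseudocount of 0.1, which weighs low values more, 1 member was higher in *Dnmt3a* KO against *Dnmt3b* KO 2i-MEFs, 1 in MEFs labelled *Dnmt3a* KO against WT with DMSO, 1 with GSK126 and 1 in GSK126 against DMSO in WT, and 1 was lower in liver labelled *Dnmt3a* KO. MEFs then had 4 members higher and 3 lower than heart and 2 lower than liver, and heart had 5 higher than liver. At 1.5-fold, 1 member was higher in MEFs labelled *Dnmt3a* KO under each treatment, and 2 were lower in MEFs than in heart. At 0.1 FPKM instead of 1, members counted as expressed were 4 in *Dnmt3a* KO 2i-MEFs, 4 in WT and 5 in *Dnmt3a* KO MEFs with DMSO, 6 in both with GSK126 and 4 in each liver library. With the 2 WT MEF libraries alone, a choice made after seeing the data, 6 members lay below MEFs, against 11.0% of all genes. The one added, *Esrrb*, rests on at most 2 reads in those MEFs, too few for its 0 in 2i-MEFs to show a difference. No paired analysis was run, and the results come from no test, with 1 library per condition. Heart and liver of a label share a number, but no fit over these pairs, or over the MEFs by label and treatment, was run. *Pou5f1*, *Nanog* and *Dppa3* rest on at most 19 reads in any library.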
